A study of Mus musculus with 16 samples.

Results

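The MOR28 cluster is a group of 6 odorant receptor genes, Olfr1507 to Olfr1512, that lie close together on mouse chromosome 14. Olfr1507 is the receptor MOR28, Olfr1508 is MOR10 and Olfr1509 is MOR83. The members were taken as the probe sets annotated to these symbols, and each symbol had 1 probe set, which gave 6 of the 22206 probe sets tested and 6 of 1080 odorant receptors on the array.

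RNA came from cells sorted out of dissociated olfactory mucosa of mice that carry the S100a5-tauGFP reporter. Because S100a5 transcription in olfactory sensory neurons depends on activity, GFP marks neurons that had recently been active. All mice carried the reporter, both sexes were used, the ages were 7 to 12 weeks, and no other allele is named. The 4 groups were GFP+ cells of odor-exposed mice, GFP- cells of the same odor-exposed mice, GFP+ cells of vehicle mice and GFP- cells of the same vehicle mice, with 4 arrays each. A pool of 3 mice gave 1 GFP+ and 1 GFP- array, so the 16 arrays stand for 8 pools and 24 mice. The odor was 1-pentanethiol, a thiol, by the title and sample labels, while the design text names bourgeonal, and the labels were followed. The vehicle was filtered air, and the mice stayed in chambers for 40 h, with 10 s pulses every 20 min from 26 h on. Values are log2 signals of Clariom S arrays, on which 1 unit is a doubling of signal, and signals are compared here only within a probe set. Every replicate pools 3 mice, so differences between single animals within a pool are not visible.

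An olfactory sensory neuron transcribes mainly 1 odorant receptor gene, from 1 of its alleles, so the RNA level of a receptor in a sorted fraction follows the number of neurons that chose it and the amount of RNA each of them makes. In such bulk samples, fewer cells of a type and less RNA per cell cannot be told apart. The H element is an enhancer beside the Olfr1507 end of the cluster. Deleting H in mice abolishes expression of the genes closest to it, MOR28, MOR10 and MOR83. Enhancers of this kind are bound by the transcription factors LHX2 and EBF together with the adaptor LDB1. MOR28 itself is known as a receptor of the ventral olfactory epithelium, and MOR83, also called MOR244-3, is known to respond to (methylthio)methanethiol, a thiol in male mouse urine.

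The cluster spans 123.586 kb in the mouse assembly GRCm38.p6, from 52372110 to 52495695 on chromosome 14, and holds members of 2 receptor families. The MOR223 family contributes Olfr1512 at 52372110 to 52373051, Olfr1511 at 52389815 to 52390771 and Olfr1510 at 52409889 to 52410927. The MOR244 family contributes Olfr1509 at 52450393 to 52451402, Olfr1508 at 52462721 to 52467461 and Olfr1507 at 52489935 to 52495695, within 45.303 kb. These positions come from the RefSeq annotation and cover the whole annotated gene, with no division into exons or UTRs used here. Beyond Olfr1512 the annotation places Olfr1513, a further MOR223 receptor, and the zinc finger gene Sall2. Trav1, a variable segment of the T-cell receptor alpha locus, lies between Olfr1510 and Olfr1509. Beyond Olfr1507 come the predicted genes Gm9537, Gm36382, Gm36448 and Gm7122 and then Trav2, a further variable segment.

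The annotated starts of 4 members had an upstream sequence in the RefSeq table of GRCm38.p6. The 250 bases before each start are shown here because Olfr1508 and Olfr1509 are neighbours that came out differently in the sort, and Olfr1510 and Olfr1511 are neighbours of the other family that came out alike. Capitals mark matches to the homeodomain core TAATNA, read on both strands, the kind of short motif that LHX2 binds.
Olfr1508, minus strand, chr14:52467462-52467711: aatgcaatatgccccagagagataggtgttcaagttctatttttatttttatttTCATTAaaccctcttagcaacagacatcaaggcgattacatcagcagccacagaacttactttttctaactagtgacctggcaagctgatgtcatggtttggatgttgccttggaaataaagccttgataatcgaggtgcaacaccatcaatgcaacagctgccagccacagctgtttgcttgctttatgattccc
Olfr1509, plus strand, chr14:52450143-52450392: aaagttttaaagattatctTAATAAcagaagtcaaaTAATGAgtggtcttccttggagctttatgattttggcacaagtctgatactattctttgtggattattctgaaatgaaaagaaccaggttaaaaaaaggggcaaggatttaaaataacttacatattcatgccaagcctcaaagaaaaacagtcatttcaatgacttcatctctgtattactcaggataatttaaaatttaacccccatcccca
Olfr1510, minus strand, chr14:52410928-52411177: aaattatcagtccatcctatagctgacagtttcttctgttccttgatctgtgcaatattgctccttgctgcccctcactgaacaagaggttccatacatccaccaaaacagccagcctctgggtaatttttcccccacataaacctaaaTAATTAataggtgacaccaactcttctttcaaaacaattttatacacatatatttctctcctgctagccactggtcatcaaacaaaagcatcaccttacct
Olfr1511, minus strand, chr14:52390772-52391021: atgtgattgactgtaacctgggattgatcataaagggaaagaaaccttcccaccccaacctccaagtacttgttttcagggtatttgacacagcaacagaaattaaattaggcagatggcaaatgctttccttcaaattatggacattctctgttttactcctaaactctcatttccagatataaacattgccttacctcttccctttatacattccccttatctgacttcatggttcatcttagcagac

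The homeodomain core occurred once upstream of Olfr1508, 196 bases before the start as TCATTA, which is the core on the opposite strand. Upstream of Olfr1509 it occurred at 231 bases as TAATAA and at 214 bases as TAATGA, and upstream of Olfr1510 at 101 bases as TAATTA. No match lay in the Olfr1511 window. The core was present in 24.76% of the 250-base windows of 27025 genes and in 63.94% of the 940 windows of odorant receptors, so its presence in 3 of the 4 members is close to the receptor background. The core CCCNNGGG of EBF sites, which reads the same on both strands, occurred in none of the 4 windows, and it was present in 2.766% of receptor windows and 11.66% of all windows. The annotated genes Olfr1509, Olfr1510 and Olfr1511 are only 1010, 1039 and 957 bases long, so their windows may lie upstream of the coding exon and not of the transcription start.

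Sorting on GFP separated the cluster. Olfr1507 was lower in GFP+ cells, with measured signals 44.1-fold apart in odor pools and 66.1-fold in vehicle pools, of which the GFP+ ones lay within the range of the negative controls, so that the size is not resolved. In contrast, Olfr1509, with a single receptor gene between them, was higher in GFP+ cells, with measured signals 8.11-fold and 5.78-fold apart. That receptor, Olfr1508, did not pass the test in either sort. The MOR223 receptors Olfr1510 and Olfr1511 were higher in GFP+ cells in both sorts, and Olfr1512 was higher in the vehicle sort. In odor pools 3 members were higher and 1 was lower at an adjusted p under 0.05. Of all tested probe sets 23.3% passed there, 11.3% higher and 11.9% lower, and of the odorant receptors 63.9% passed, 36.7% higher and 27.2% lower. In vehicle pools 4 members were higher and 1 was lower. There 21.1% of all probe sets passed, 9.34% higher and 11.8% lower, and 61.4% of receptors, 36.9% higher and 24.4% lower. Counts of 4 and 5 out of 6 are thus near the share of receptors that pass. The median difference of the members was 0.65 in odor pools and 1.09 in vehicle pools, compared with 0.26 and 0.26 over all receptors and 0.13 and 0.11 over all probe sets.

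**Figure D1:**
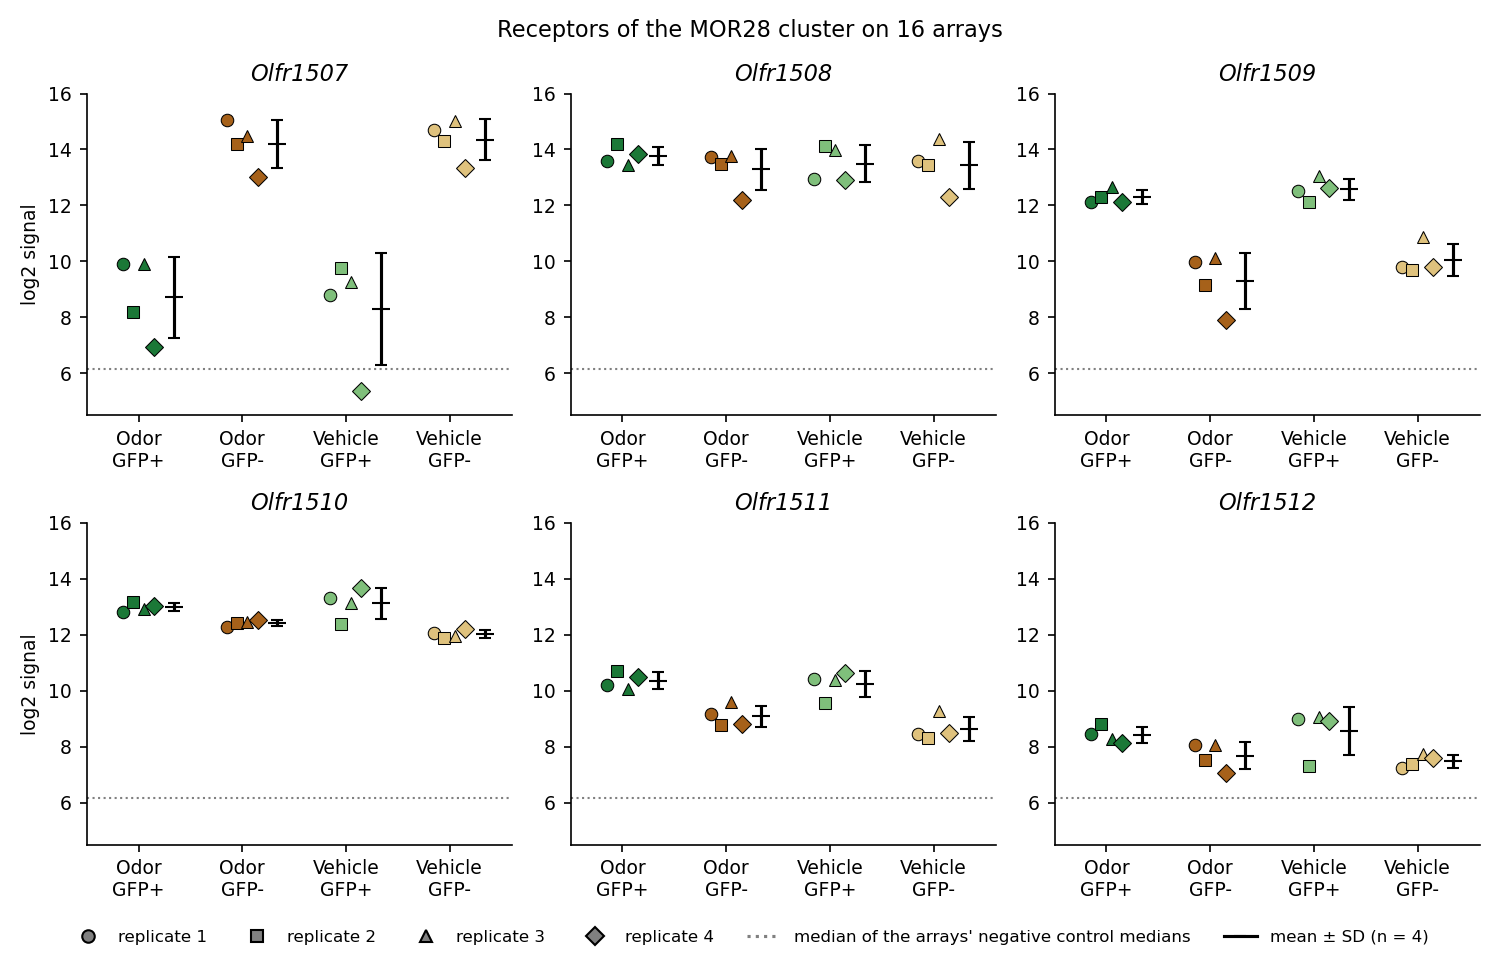
Log2 signal of each of the 6 members on every array, 1 panel per gene, with the groups odor GFP+, odor GFP-, vehicle GFP+ and vehicle GFP- along the x axis. Points are the 4 arrays of a group, with a shape for each replicate number, the bar is their mean with its SD, and the dotted line is the median signal of the negative control entries over the arrays. Olfr1507 is low in both GFP+ groups, Olfr1509 is low in both GFP- groups, and Olfr1508 overlaps in all 4.

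Olfr1507 had log2 signals of 9.90, 8.19, 9.90 and 6.93 in odor GFP+ cells, against 15.04, 14.21, 14.49 and 13.03 in odor GFP- cells. Vehicle GFP+ cells gave 8.81, 9.76, 9.28 and 5.36, against 14.70, 14.32, 15.03 and 13.34 in vehicle GFP- cells. The highest GFP+ array of either arm thus stayed below the lowest GFP- array of that arm, and within a fraction the odor and vehicle values overlapped. GFP+ minus GFP- was -5.46 ± 0.82 in odor pools and -6.05 ± 0.82 in vehicle pools (SE, n = 4 arrays a group), with limma adjusted p of 7.25e-05 and 2.4e-05. Leaving out vehicle replicate 4 took the vehicle value to -5.40, or 42.3-fold, and leaving out vehicle replicate 2 took it to -6.54, or 93.0-fold. The GFP+ signal of the receptor reached the range of nonspecific signal: the lowest array, vehicle GFP+ replicate 4, was above 28.5% of the negative control entries, and the odor GFP+ arrays were above 61.8% to 93.8% of them. All GFP- arrays of both arms lay above at least 98.7% of the negative controls.

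The order of the 4 group means for Olfr1507 was vehicle GFP- at 14.35 ± 0.73, odor GFP- at 14.19 ± 0.85, odor GFP+ at 8.73 ± 1.45 and vehicle GFP+ at 8.30 ± 2.00 (SD, n = 4). The GFP- groups do not differ beyond their spread, nor do the GFP+ groups. The spread itself was wide. Its SD was larger than that of 99.4% of receptors in odor GFP+ cells and of 99.8% in vehicle GFP+ cells, and larger than that of 98.0% in odor GFP- and 95.7% in vehicle GFP- cells.

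Olfr1508 gave 13.58, 14.19, 13.46 and 13.83 in odor GFP+ cells, against 13.74, 13.48, 13.75 and 12.20 in odor GFP- cells. In vehicle GFP+ cells it gave 12.94, 14.13, 13.98 and 12.92, against 13.59, 13.46, 14.37 and 12.30 in vehicle GFP- cells. All 4 groups overlapped. The difference was 0.47 ± 0.41 in odor pools, with a 95% interval of -0.40 to 1.35 and an adjusted p of 0.43. It was 0.065 ± 0.41 in vehicle pools, with an interval of -0.81 to 0.94 and an adjusted p of 0.93. Neither interval includes a difference of the size seen in Olfr1507 or Olfr1509, although an enrichment of 1.91-fold in vehicle pools or 2.54-fold in odor pools remains inside them. Its group means ran from odor GFP+ at 13.76 ± 0.32 through vehicle GFP+ at 13.49 ± 0.65 and vehicle GFP- at 13.43 ± 0.85 to odor GFP- at 13.29 ± 0.74 (SD, n = 4), and no neighbours in that order differ beyond their spread.

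Olfr1509 had 12.14, 12.30, 12.66 and 12.14 in odor GFP+ cells, against 9.97, 9.17, 10.11 and 7.92 in odor GFP- cells. Its vehicle GFP+ arrays read 12.53, 12.13, 13.06 and 12.61, against 9.81, 9.70, 10.89 and 9.81 in vehicle GFP- cells. Every GFP+ array was above every GFP- array, in both arms. The difference was 3.02 ± 0.38 in odor pools and 2.53 ± 0.38 in vehicle pools, with adjusted p of 1.11e-05 and 8.02e-05, and ranked 44th and 70th from the top among the 1080 receptors. By group mean the order was vehicle GFP+ at 12.58 ± 0.38, odor GFP+ at 12.31 ± 0.25, vehicle GFP- at 10.05 ± 0.56 and odor GFP- at 9.29 ± 1.01 (SD, n = 4). Only the step between the fractions is larger than the spread. Its GFP- arrays lay above 81.8% to 94.7% of the negative controls in odor pools and 93.6% to 96.3% in vehicle pools. The size of the folds is therefore not fully resolved.

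Among the MOR223 members, Olfr1511 had the clearest separation. It read 10.20, 10.71, 10.05 and 10.49 in odor GFP+ cells, against 9.17, 8.76, 9.59 and 8.83 in odor GFP- cells, and 10.41, 9.58, 10.38 and 10.63 in vehicle GFP+ cells, against 8.45, 8.31, 9.27 and 8.48 in vehicle GFP- cells. The fractions overlapped in neither arm. It rose in GFP+ cells by 1.28 ± 0.25 in odor pools and 1.63 ± 0.25 in vehicle pools, which is 2.42-fold and 3.09-fold in measured signal, with adjusted p of 0.00119 and 0.000111. Its GFP- arrays lay above 89.5% to 93.2% of the negative controls in odor pools and 86.4% to 91.5% in vehicle pools. The vehicle GFP+ arrays lay above 83.5% to 95.9% of them, so the size of these folds is not fully resolved. Its order of group means was odor GFP+ at 10.37 ± 0.29, vehicle GFP+ at 10.25 ± 0.46, odor GFP- at 9.09 ± 0.38 and vehicle GFP- at 8.62 ± 0.43 (SD, n = 4).

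Olfr1510 gave 12.83, 13.16, 12.92 and 13.03 in odor GFP+ cells, against 12.29, 12.42, 12.45 and 12.52 in odor GFP- cells. Vehicle GFP+ cells had 13.32, 12.38, 13.12 and 13.68, against 12.07, 11.87, 11.97 and 12.19 in vehicle GFP- cells. No GFP+ array fell within the GFP- range of its arm, and the 2 GFP- groups were tight, with SDs smaller than those of all but 2.3% and 5% of receptors. In odor pools the rise was 0.56 ± 0.20, or 1.48-fold, with an adjusted p of 0.0479, and in vehicle pools it was 1.10 ± 0.20, or 2.14-fold, with an adjusted p of 0.00045. The odor value lies at the edge of the threshold: leaving out any 1 of the 4 odor pools gave adjusted p of 0.110 to 0.186, and leaving out vehicle replicate 1 or 3 gave 0.0629 and 0.0684. The rise itself stayed between 0.51 and 0.59 in these fits. Group means ran from vehicle GFP+ at 13.13 ± 0.55 through odor GFP+ at 12.98 ± 0.14 and odor GFP- at 12.42 ± 0.095 to vehicle GFP- at 12.02 ± 0.14 (SD, n = 4), and the first and second do not differ beyond their spread.

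Olfr1512, the member farthest from the H side, had 8.45, 8.80, 8.28 and 8.15 in odor GFP+ cells, against 8.08, 7.53, 8.07 and 7.06 in odor GFP- cells. It had 9.0, 7.30, 9.06 and 8.91 in vehicle GFP+ cells, against 7.23, 7.38, 7.75 and 7.59 in vehicle GFP- cells. The odor fractions did not overlap, and the vehicle fractions overlapped through 1 array, vehicle GFP+ replicate 2. In odor pools GFP+ minus GFP- was 0.73 ± 0.33 with an adjusted p of 0.116, which does not pass, and in vehicle pools it was 1.08 ± 0.33, or 2.11-fold, with an adjusted p of 0.0247. Both calls turn on single pools. All 16 arrays share 1 estimate of the spread, and without vehicle replicate 2 the odor value passed with an adjusted p of 0.0217, and without vehicle replicate 1, 3 or 4 the vehicle value no longer passed, with 0.152, 0.0864 and 0.0999. Signals were low, above 50.3% to 90.5% of the negative controls over the vehicle GFP+ arrays. Its group means were vehicle GFP+ at 8.57 ± 0.85, odor GFP+ at 8.42 ± 0.28, odor GFP- at 7.69 ± 0.49 and vehicle GFP- at 7.49 ± 0.23 (SD, n = 4), and neighbours within a fraction do not differ beyond their spread.

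**Figure D2:**
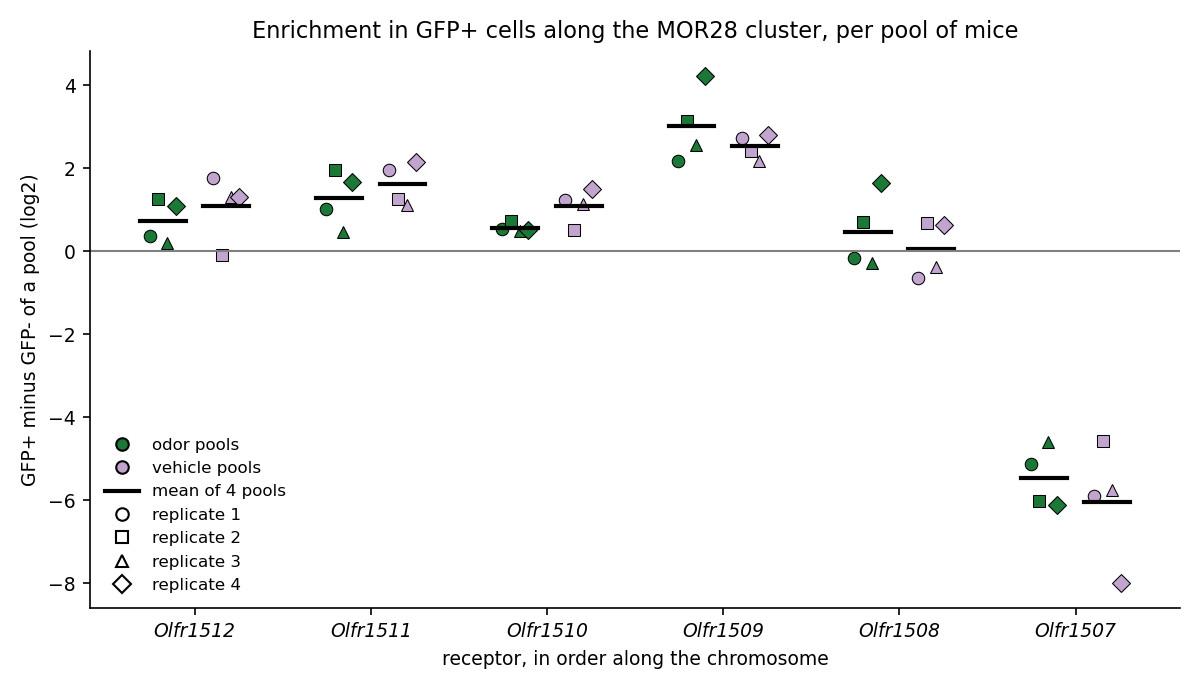
GFP+ minus GFP- log2 difference of each member in each pool of mice, with the members on the x axis in their order along the chromosome. Points are pools (green for odor, violet for vehicle, with a shape for each replicate number) and bars are means of 4 pools. The mean stays between 0 and 2 for the MOR223 members, is highest for Olfr1509 at 3.02 and 2.53, and ends at -5.46 and -6.05 for Olfr1507, the member nearest the H side.

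Non-overlapping fractions were found for 5 members in odor pools and 4 in vehicle pools, and 26.8% and 23.7% of all tested probe sets also had them, or 60.7% and 54.8% of receptors. The mean difference over the 8 pools, in which each GFP+ array is set against the GFP- array of the same mice, gives the order within the cluster. Olfr1509 led with a mean of 2.78 and a range of 2.17 to 4.22, higher in GFP+ cells in 8 of 8 pools. Olfr1511 followed with 1.45 (0.47 to 2.15, 8 of 8 pools), Olfr1512 with 0.91 (-0.084 to 1.77, 7 of 8 pools) and Olfr1510 with 0.83 (0.48 to 1.5, 8 of 8 pools). Olfr1508 averaged 0.27 with a range of -0.65 to 1.63 and was higher in 4 of 8 pools, and Olfr1507 averaged -5.75 with a range of -7.98 to -4.56 and was higher in 0 of 8. The difference of Olfr1509 exceeded that of its neighbour Olfr1508 in 8 of 8 pools, and Olfr1508 minus Olfr1509 averaged -2.51. The difference of Olfr1507 was below that of each other member in all 8 pools. The ranges of Olfr1510, Olfr1511 and Olfr1512 overlap, and no pair of them kept 1 order in all 8 pools. Within pools, the difference of Olfr1511 exceeded that of Olfr1512 in 7 of 8, by 0.54 ± 0.47 on average (SD, n = 8 pools). Olfr1510 exceeded Olfr1511 in 2 of 8, with a mean of -0.62 ± 0.46, and Olfr1512 in 4 of 8, with a mean of -0.075 ± 0.44. The order of these 3 was not tested.

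**Figure D3:**
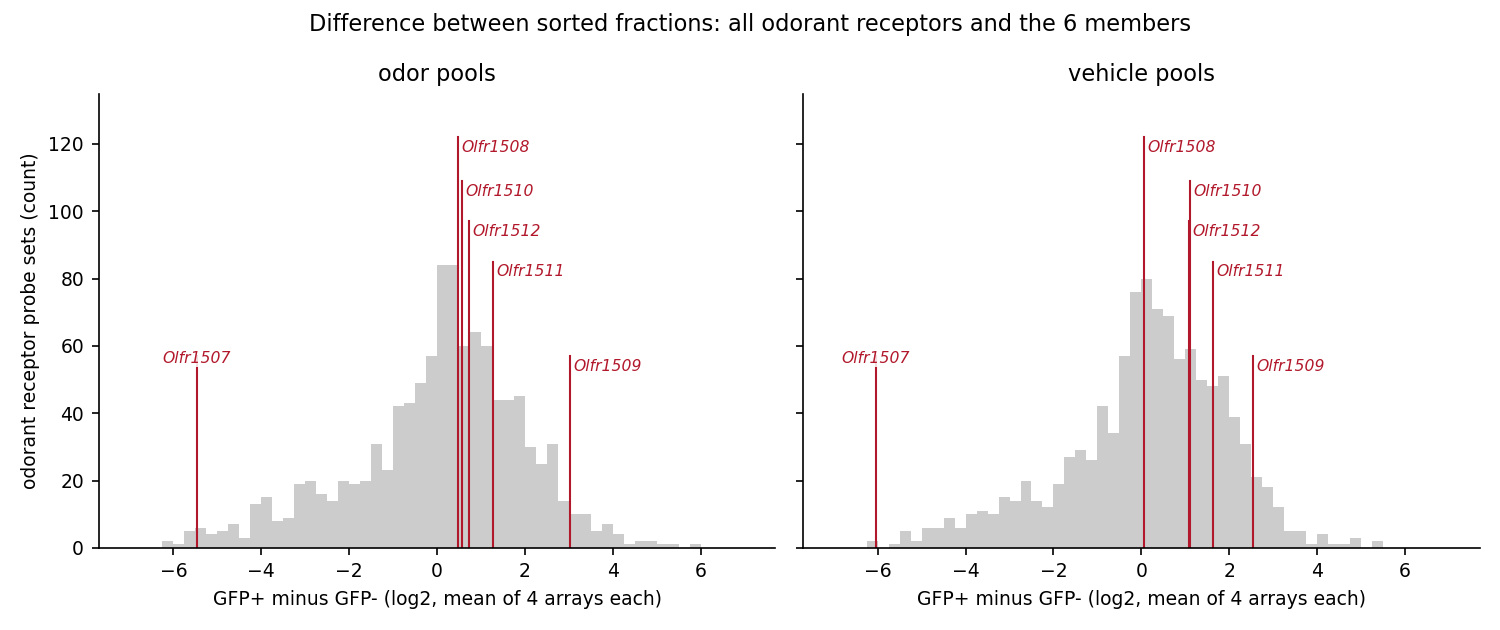
Histogram of the GFP+ minus GFP- log2 difference over 1080 odorant receptor probe sets, in odor pools on the left and vehicle pools on the right, with red lines at the 6 members. Line heights carry no value and serve to keep the labels apart. Olfr1507 lies in the low tail of both histograms, Olfr1509 on the high side, and the other 4 members between 0 and 2.

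The sorted fractions differed in more than activity, and those values stand beside the members' differences. S100a5 itself was higher in GFP+ cells by 0.99 ± 0.12 in odor pools (adjusted p = 7.79e-06) and by 0.87 ± 0.12 in vehicle pools (adjusted p = 3.51e-05). Omp, the marker of mature olfactory neurons, differed by 0.031 and 0.052 and did not pass in either sort, with a sign that turned to -0.022 with quantile normalization in odor pools and to -0.030 and -0.18 with receptor medians set equal. Of 10 mature neuron markers 1 was higher in each sort, Ano2, the calcium-activated chloride channel of the cilia, and the medians were 0.13 and 0.14. Of 7 immature neuron markers 4 were lower in GFP+ cells in odor pools and 5 in vehicle pools (medians -0.57 and -0.74). All 8 neutrophil markers were lower in odor and in vehicle pools (medians -7.91 and -8.00), and their mean log2 level was 7.02 to 8.52 in odor GFP+ arrays, against 14.68 to 15.90 in odor GFP- arrays, and 6.84 to 7.92 in vehicle GFP+ arrays, against 15.25 to 15.99 in vehicle GFP- arrays. B lineage markers were lower for 3 of 3 and microvillar cell markers for 5 of 5 in each sort. Of 5 markers of globose basal and dividing cells 4 were lower in each sort, with a mean log2 level of 5.91 in odor GFP+ cells, against 8.33 in odor GFP- cells, and 6.01 in vehicle GFP+ cells, against 8.58 in vehicle GFP- cells. Macrophage markers were lower for 2 of 5 in each sort (medians -0.47 and -0.13). Sustentacular markers were lower for 2 of 7 in odor pools and 1 of 7 in vehicle pools, with medians of 0.0082 and -0.0027. Of all tested probe sets 11.9% were lower and 11.3% higher in odor pools, and 11.8% and 9.34% in vehicle pools. The mature neuron counts and the sustentacular count in vehicle pools are near these shares. The part of these cell types in the members' differences was not tested.

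Relatives and neighbours outside the cluster were read for comparison. MOR244 has no other member on the array. MOR223 has 6 receptors besides the members, Olfr978 to Olfr982 on chromosome 9 and Olfr1513 beside Olfr1512. In odor pools 5 of these 6 were higher in GFP+ cells and in vehicle pools 6 of 6 (Olfr980 missed in odor pools without odor replicate 2 or 4, with adjusted p of 0.0615 and 0.0518), with median differences of 1.54 and 1.61, and Olfr981 had the highest, at 3.97 and 4.01. Olfr1513 had 0.60 (adjusted p = 0.204) and 0.96 (adjusted p = 0.0483), and the vehicle call was lost in 9 of 17 alternatives. Over all 9 MOR223 receptors 7 were higher in odor pools and 9 in vehicle pools, and none was lower. Of the 33 other receptors of chromosome 14, Olfr1513 included, 20 were higher and 8 lower in each sort, and the median was 1.24 in odor pools and 1.38 in vehicle pools. For comparison, 36.7% of all odorant receptors were higher and 27.2% lower in odor pools, and 36.9% and 24.4% in vehicle pools. Over all tested probe sets the shares were 11.3% and 11.9% in odor pools, and 9.34% and 11.8% in vehicle pools. Of 9 genes listed for the flanks of the cluster, 1 was lower in both sorts and none was higher: Slc7a7, an amino acid transporter gene, at -0.96 and -1.05.

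**Figure D4:**
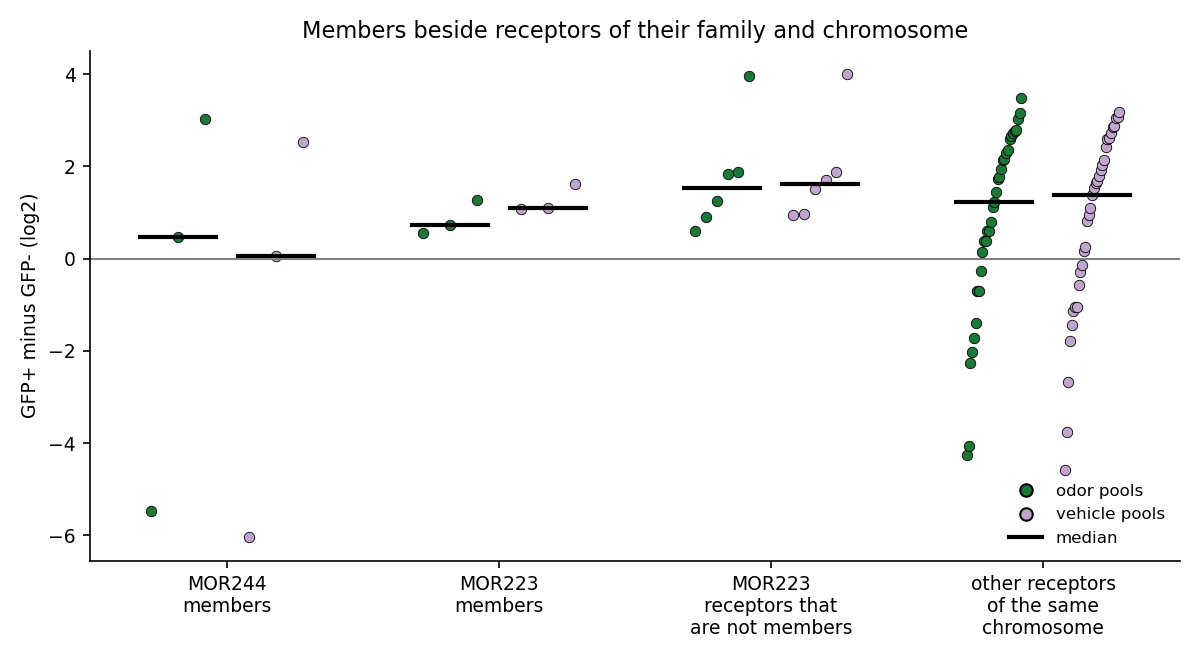
GFP+ minus GFP- log2 difference of the MOR244 members, the MOR223 members, the MOR223 receptors outside the cluster and the other receptors of chromosome 14, in odor pools (green) and vehicle pools (violet). Each point is a probe set, sorted by value within its set, the bar is the median, and Olfr1513 appears in both of the last sets. MOR223 receptors all lie above 0, with Olfr981 the highest, while the 3 MOR244 members lie on both sides of 0 and Olfr1507 is the lowest point shown.

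Of 21 measured genes of a list of regulators of receptor choice, 3 were lower and none was higher in GFP+ cells in each sort, where 11.9% and 11.8% of all probe sets were lower, so the count is near that background, and the medians were -0.035 and 0.040. The factors that bind enhancers such as H were among those that did not pass: Lhx2 differed by -0.079 in odor pools and -0.16 in vehicle pools, Ldb1 by -0.086 and -0.17, and Ebf1 by 0.075 and 0.086. Lbr, the lamin B receptor, whose loss from the nuclear envelope accompanies the gathering of receptor genes in the nucleus, was lower, with a difference of -1.89 ± 0.23 in odor pools (adjusted p = 8.68e-06) and -1.89 ± 0.23 in vehicle pools (adjusted p = 8.33e-06). Cbx5, a heterochromatin protein gene, was at -0.62 in odor pools and -0.45 in vehicle pools and passed in both, but lost the call in 4 and 11 of 17 alternatives, among them the paired fit of vehicle pools (adjusted p = 0.0811). Kdm1a, the histone demethylase LSD1, was at -0.35 in odor pools, a call lost in 7 of 17 alternatives and in the paired fit (adjusted p = 0.0659). Tshz1, a zinc finger gene, passed in vehicle pools at -0.65, a call lost in 5 of 17, and passed in odor pools in the paired fit (-0.40, adjusted p = 0.0458). The difference between the sorts did not pass for Kdm1a or Tshz1. GFP- cells were also higher in all measured neutrophil and B lineage markers and in most markers of globose basal and dividing cells. The part of those cells in the differences of Lbr, Cbx5, Kdm1a and Tshz1 was not tested. Of the genes of dorsal and ventral zones, 1 of 4 dorsal ones, the guidance receptor gene Robo2, was lower in odor pools at -0.62, and 1 of 5 ventral ones, the adhesion gene Ncam2, was higher at 0.40 with an adjusted p of 0.0466. These calls were lost in 5 of 17 alternatives for Robo2 and in 9 of 17 for Ncam2. None of either list passed in vehicle pools. Of all probe sets 11.9% were lower and 11.3% higher in odor pools. The medians of the dorsal and ventral lists were -0.022 and 0.047 in odor pools, and -0.037 and -0.072 in vehicle pools. Both lists had genes on both sides of 0, with ranges of -0.62 to 0.041 and -0.15 to 0.40 in odor pools. In vehicle pools the ranges were -0.24 to 0.22 and -0.33 to 0.57.

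The comparison the assay is built on asks whether an odor raises the GFP+ enrichment of a receptor above that in vehicle mice. No member passed. The gain, as the odor pools' GFP+ minus GFP- difference less that of the vehicle pools, was 0.58 ± 1.16 for Olfr1507, 0.41 ± 0.58 for Olfr1508 and 0.49 ± 0.54 for Olfr1509, the receptor with a known thiol ligand. For the MOR223 members it was -0.54 ± 0.28 for Olfr1510, -0.35 ± 0.36 for Olfr1511 and -0.35 ± 0.46 for Olfr1512. The limma adjusted p was 0.999 for each of the 6, while 0.063% of all tested probe sets passed, 14 in number, all of them odorant receptors and 1.3% of these. At an unadjusted p under 0.05 there were 0 of 6 members, against 4.65% of all probe sets and 10.1% of receptors. The 95% interval for Olfr1509 ran from -0.65 to 1.63, so a gain of up to 3.10-fold or a loss down to 0.637-fold lies within it. That for Olfr1507, from -1.86 to 3.03, is wider than for any other member. The 3 MOR244 gains were above 0 and the 3 MOR223 gains below 0, and all of their intervals include 0. The median gain was itself below 0 over all receptors, at -0.17, compared with 0.0080 over all probe sets. Of the receptors, 17.1% had a lower gain than Olfr1510, 33.1% than Olfr1511 and 33.3% than Olfr1512. For Olfr1508, Olfr1509 and Olfr1507 the shares were 87.8%, 89.2% and 91.1%.

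Within GFP+ cells alone, odor minus vehicle lay between -0.27 and 0.43 for the 6 members, with adjusted p of 0.918 to 0.956, and 0.0766% of all tested probe sets and 0.833% of receptors passed. Within GFP- cells it lay between -0.76 and 0.46, with an adjusted p of 1.00 for each, and 0.0495% of all probe sets and 0.833% of receptors passed. By limma 0 of 6 members had an unadjusted p under 0.05 in either comparison, against 7.15% of all probe sets and 9.35% of receptors in GFP+ cells, and 2.61% and 7.69% in GFP- cells. The smallest unadjusted p belonged to 2 members in GFP- cells. Olfr1510 was at 12.29 to 12.52 in odor GFP- cells and at 11.87 to 12.19 in vehicle GFP- cells, groups that do not overlap, which 2.61% of all probe sets and 5.19% of receptors also show, and its difference of 0.40 ± 0.20 had an unadjusted p of 0.061. Olfr1509 had a difference of -0.76 ± 0.38 with a 95% interval of -1.57 to 0.045 and an unadjusted p of 0.0627, and its groups overlap.

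**Figure D5:**
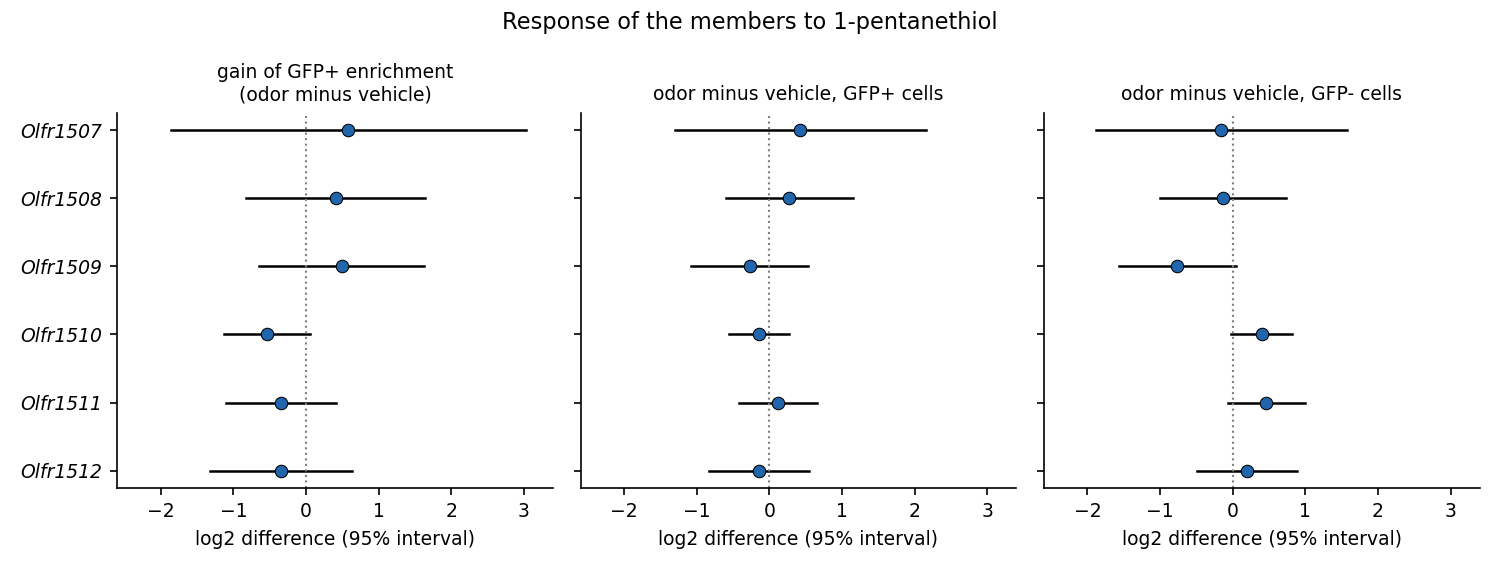
Gain of GFP+ enrichment with odor, and odor minus vehicle in GFP+ cells and in GFP- cells, for the 6 members on a log2 scale. Points are the limma estimates and lines their 95% intervals. Every interval includes 0, and those of Olfr1507 are the widest.

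Olfr1507 and Olfr1509 each had their lowest or highest value at a fixed replicate number in all 4 groups, and no other member did. Olfr1507 was lowest in replicate 4 in all 4 groups, as were 23 of the 1080 receptors, or 2.13%. Olfr1509 was highest in replicate 3 in all 4 groups, as were 12 receptors, or 1.11%. These shares are for a number and direction picked after the values were seen, so they understate how common such a pattern is. Depending on the number, 0.556% to 2.13% of receptors were lowest in all 4 groups and 0.370% to 5.37% were highest. Olfr1508 was lowest in replicate 4 in 3 of the 4 groups. Likewise in 3 of 4 groups, Olfr1510 was highest in replicate 4 and Olfr1511 was lowest in replicate 2. In odor GFP- cells, 4 members, Olfr1507, Olfr1508, Olfr1509 and Olfr1512, had their lowest value in replicate 4. The 2 fractions of a pool come from the same mice. What the same number shares between odor and vehicle pools is not given in the sources used here.

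In more than 1 library several members shared the lowest or highest value of their group. Vehicle GFP- replicate 3 was the highest of its group for 5 members. Odor GFP+ replicate 2 was the highest for 4, and odor GFP- replicate 4 was the lowest for 4. Vehicle GFP+ replicate 2 was the lowest of its group for Olfr1509, Olfr1510, Olfr1511 and Olfr1512 and the highest for Olfr1507 and Olfr1508. The median of its negative control entries was 7.28, compared with 5.99 to 6.48 on the other 15 arrays. Odorant receptors as a whole were also low there, with a median of 9.39, compared with 9.86 to 9.97 on the other vehicle GFP+ arrays. Without that array Olfr1512 passed in odor pools, with an adjusted p of 0.0170, and the difference of Olfr1508 in vehicle pools was -0.15.

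By the pattern over all 16 arrays, measured as the root mean square distance of log2 values after each probe set was centred on its mean, the genes closest to Olfr1507 were Olfr1322 at 0.684, Olfr390 at 0.739 and Olfr1213 at 0.782. Olfr1509 was closest to Olfr1443 at 0.436, and next to Olfr726 at 0.452 and Olfr741 at 0.482, both of chromosome 14. The nearest to Olfr1508 were Tas2r114 at 0.386, Kif1a at 0.397 and Sgca at 0.406, of which none is an odorant receptor. Those nearest Olfr1510 were Pnmal1 at 0.215, Olfr541 at 0.218 and Olfr801 at 0.230, and those nearest Olfr1511 were Olfr1129 at 0.277, Olfr961 at 0.296 and Olfr147 at 0.298. For Olfr1512 they were Rgs7bp at 0.248, Olfr109 at 0.261 and its own neighbour Olfr1513 at 0.275. Between members, the MOR223 trio lay at 0.360 to 0.432 from each other, while Olfr1507 lay at 3.18 to 4.42 from the other 5. The distance is not scaled, so it also follows how far a member's own values vary. Taken alone, the root mean square of the centred values was 0.510 for Olfr1510, 0.820 for Olfr1511, 0.647 for Olfr1512 and 3.11 for Olfr1507. The MOR244 receptors are close relatives, and whether a probe set also read RNA of its relatives was not tested, since probe sequences were not used here.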

How the data were processed

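The deposited values are log2 signals of Clariom S probe sets that the authors made with Affymetrix Expression Console, per the submitters' processing notes. For its version, the summarization and the normalization, the sources used here give nothing. No further scaling or filter was applied. Of 28846 features, 22206 non-control probe sets were tested, 19572 with 1 symbol and 2634 with none. The 5222 negative control entries served as the level of nonspecific signal. Precision is limited by the number of arrays.

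A limma 3.58.1 model (R 4.3.3) of 4 group means covered all 16 arrays (empirical Bayes, two-sided, Benjamini-Hochberg over the 22206 probe sets, threshold 0.05), a script tested on simulated data. GFP+ and GFP- arrays of a pool share mice, and their deviations correlated with r of 0.0119 to 0.224. Arrays of the same number correlated with r of 0.186 to 0.29 between odor and vehicle in GFP- cells, over 0.1 in every pair, but with 0.0311 to 0.256 in GFP+ cells. Alternatives were fits with a block, each comparison's own groups, other scalings and left-out pools.

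The members and gene lists were chosen with earlier results of these data known. Besides members, the 3 genes nearest each member's pattern, up to 4 passing genes of each list, S100a5 and Omp were named. Olfr728, Olfr745, Olfr31, Pcdh10 and Ano2 were chosen after their values were seen. Coordinates and upstream sequences are RefSeq's, GRCm38.p6, and 4 of 6 members matched an upstream sequence.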

Additional observations from a re-analysis of the deposited data

Results flagged for a closer look

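In 3 of the 24 sets of 4 arrays (6 members in 4 groups), 1 array stood apart from the other 3, its gap to the nearest array, as a share of the whole range, being above Dixon's 95% critical value. Chance flags about 1 in 20 such sets. Olfr1508 had its lowest odor GFP- value in replicate 4, at 12.20, with a gap of 0.831 of the range. Olfr1509 had its highest vehicle GFP- value in replicate 3, at 10.89, with a gap of 0.910. Olfr1512 had its lowest vehicle GFP+ value in replicate 2, at 7.30, with a gap of 0.912, on the array whose negative control median was 7.28. The causes were not tested.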

How the results depend on the processing

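Of 504 values of members under the alternatives, 475 kept their direction and their side of the threshold, 14 changed sign, 11 fell short of the threshold and 4 newly passed it. This count does not measure robustness. In the sorts, a block, the comparison's own groups or a left-out pool of the other arm cannot change a difference, only its spread. The 504 also include the comparisons of odor with vehicle, in which no member passed. The calls of Olfr1507, Olfr1509 and Olfr1511 in both sorts, and that of Olfr1510 in vehicle pools, held in all 17 alternatives. Member counts ranged from 3 to 5 in odor pools and from 4 to 5 in vehicle pools with a replicate left out, and were 0 to 0 in the comparisons of odor with vehicle. With a replicate block, which pairs the fractions of a pool or the same numbers, no member changed its call: the fixed block gave 4 and 5 members past the threshold in odor and vehicle pools (Olfr1510 in odor pools: adjusted p = 0.0237) and 5072 and 4744 probe sets. Olfr1512 in odor pools passed with array medians aligned (1.06, adjusted p = 0.00975) and with quantile normalization (1.04, 0.0179), and in vehicle pools missed with its own groups alone (0.0589). Olfr1510 in odor pools missed with receptor medians aligned (0.0635).

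All probe sets past the threshold in odor pools numbered 5167, and 15107 with array medians aligned (13098 higher, 2009 lower), 3279 with receptor medians aligned (865 higher, 2414 lower) and 3340 to 5749 with a replicate left out, lowest without odor replicate 2, and 5946 without the GFP+ array of vehicle replicate 2. In vehicle pools they numbered 4691, and 15011 with array medians aligned (13003 higher, 2008 lower) and 3735 to 4597 with a replicate left out. There, receptor medians gave 515 higher and 3237 lower, and quantile normalization 3665 and 2501 (odor pools: 3594 and 2521). The median of all probe sets moved by 0.326 and 0.348 with array medians and by -0.0617 and -0.228 with receptor medians. The gain had 14 probe sets past the threshold, 22 with receptor medians and 12 to 16 with a replicate left out. Odor against vehicle had 17 in GFP+ cells, 6 with only these groups, 10 without the GFP+ array of vehicle replicate 2 and 7 to 15 with a replicate left out, and 11 in GFP- cells, 17 with receptor medians and 7 to 11 with a replicate left out.

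None of the member values that changed sign had passed the threshold. Olfr1508 in vehicle pools was -0.16 with receptor medians, -0.15 without the GFP+ array of vehicle replicate 2 and -0.14 to 0.30 with a replicate left out. With a replicate left out, the gain of Olfr1507 ran from -0.060 to 1.08. In GFP+ cells, odor against vehicle ran from -0.55 to 1.03 for Olfr1507, -0.39 to 0.045 for Olfr1510, -0.11 to 0.24 for Olfr1511 (-0.11 without that array) and -0.57 to 0.019 for Olfr1512. In GFP- cells it ran from -0.49 to 0.23 for Olfr1507 and -0.51 to 0.23 for Olfr1508. Omp turned to -0.022 (quantile) and -0.030 (receptor medians) in odor pools and -0.18 (receptor medians) in vehicle pools. With array medians in vehicle pools Kdm1a was 0.078 and Robo2 0.16. The causes were not tested.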

Other observations

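Receptors of chromosome 14 outside the cluster also lay on both sides of 0. The following were chosen after their values were seen. Olfr745 had the highest GFP+ minus GFP- difference of them in odor pools, at 3.49, and Olfr728 the lowest, at -4.26. Olfr31, a receptor of the MOR274 family far from the cluster on the same chromosome, was higher with odor in GFP+ cells by 1.16 ± 0.16 (limma adjusted p = 0.00594), at 13.50 ± 0.18 in odor GFP+ cells and 12.34 ± 0.31 in vehicle GFP+ cells (SD, n = 4), while no member passed in that comparison. Pcdh10, a protocadherin gene of the slow activity list, was higher with odor in both fractions, by 3.99 ± 0.38 in GFP+ cells (adjusted p = 0.000122) and by 3.28 ± 0.38 in GFP- cells (adjusted p = 0.000776).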
